A study of Mus musculus with 4 samples.

Results

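The CCAAT/enhancer-binding proteins (C/EBPs) were examined in mouse brown adipocytes that expressed either a vector or Blnc1, a long noncoding RNA named after brown fat. The family was taken as 5 genes, Cebpa, Cebpb, Cebpd, Cebpg and Ddit3, and a probe set was counted as a member where the platform annotation gave it exactly 1 gene symbol among these. This gave 9 probe sets out of 23634 in the deposited table, covering 5 of 10926 genes: 3 for Cebpb, 3 for Cebpg and 1 each for Cebpa, Cebpd and Ddit3. Probe sets of Cebpe and Cebpz were not analysed here.

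Both groups were wild type preadipocytes that carried their construct before differentiation and were harvested as adipocytes after 6 days, with 2 arrays for vector and 2 for Blnc1. The promoter that drives Blnc1, the way the construct was delivered and whether each group was a clone or a pool are not given in the sources used here. Total RNA was read on single-colour Affymetrix arrays as log2 expression values, so that a difference of 1 is a 2-fold change. The replicates are labelled biological, but nothing states that they came from separate transductions, and the p-values then measure only the spread between these arrays.

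C/EBPs are basic leucine zipper (bZIP) transcription factors: the zipper pairs 2 family members and the basic region binds DNA. In cultured fat cells Cebpb and Cebpd are induced early by the hormonal cocktail and switch on Pparg and Cebpa, and Cebpa and Pparg then sustain each other in the mature adipocyte. In brown fat Cebpb also works with Prdm16 and acts at the Ucp1 and Ppargc1a genes. Cebpg lacks the activation domains of the other members. Cebpg and Ddit3 (also named CHOP) mostly act by pairing with other members or with ATF4. Ddit3 is a gene of the stress response that can hold back adipocyte differentiation. The Cebpa and Cebpb messages are each translated into a longer activating protein and a shorter one that can act against it, a difference that an RNA array does not read.

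The 250 bases upstream of the annotated start of the 3 members with the smallest p-values below, Ddit3, Cebpb and Cebpa, are shown for the known regulatory letters near the starts of members that stood apart in opposite directions. They were taken from RefSeq on GRCm38.p6, where 4 of the 5 members were matched, all but Cebpd. The motifs searched on both strands were TGACG (the core of a cAMP response element), TTGCG (the core of a C/EBP site), the CCAAT box, the AP-1 site TGANTCA and the TATA box, written TATAAA. Capitals mark every match, and no matches overlapped in these sequences.
Ddit3 (chr10:127290543-127290792, plus strand): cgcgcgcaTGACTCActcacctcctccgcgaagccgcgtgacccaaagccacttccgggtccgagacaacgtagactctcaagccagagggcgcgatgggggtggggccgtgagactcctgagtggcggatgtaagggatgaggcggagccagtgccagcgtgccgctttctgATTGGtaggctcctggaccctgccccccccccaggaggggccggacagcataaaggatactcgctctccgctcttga
Cebpb (chr2:167688665-167688914, plus strand): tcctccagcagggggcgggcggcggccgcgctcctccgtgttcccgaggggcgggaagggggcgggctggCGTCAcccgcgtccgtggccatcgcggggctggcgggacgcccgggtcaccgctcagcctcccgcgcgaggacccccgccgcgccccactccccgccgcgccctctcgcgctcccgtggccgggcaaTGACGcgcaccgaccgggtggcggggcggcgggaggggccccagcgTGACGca
Cebpa (chr7:35119043-35119292, plus strand): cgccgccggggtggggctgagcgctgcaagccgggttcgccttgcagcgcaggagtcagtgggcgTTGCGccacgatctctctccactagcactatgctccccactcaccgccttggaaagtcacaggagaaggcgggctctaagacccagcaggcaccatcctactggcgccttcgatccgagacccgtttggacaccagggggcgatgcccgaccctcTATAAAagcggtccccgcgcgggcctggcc

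The Cebpb window held 3 matches to TGACG, the nearest at -7 to -3 from the start, and no other member's window held one. A match to TGACG was present in 17.8% of all 32851 RefSeq windows of this length. Ddit3 had an AP-1 match at -242 to -236, a motif found in 6.75% of the windows, and a CCAAT match on the opposite strand at -77 to -73. The Cebpg window, which is not printed, held 2 CCAAT matches, against at least 1 in 33.8% of all windows. Cebpa had a C/EBP core at -185 to -181 (found in 14.5% of the windows) and a TATA match at -30 to -25 (12.4%). A match is a description of the letters and shows no binding. The windows of the 4 members were 64.8% to 81.6% G and C, against a median of 52.4%.

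Ddit3 and Cebpb read higher and Cebpa and Cebpd lower in Blnc1 cells than in vector cells on their brightest probe sets, and the probe sets of Cebpg had no common direction. None of the family passed the test. In linear models with moderated variances (limma), 0 of the 9 probe sets and 0 of the 5 genes, each read on its brightest probe set, had an adjusted p under 0.05 (Benjamini-Hochberg over all probe sets), where 0.928% of all probe sets and 1.23% of all genes did. At an unadjusted p under 0.05 there were 4 of the 9 probe sets, against 18.9% of all probe sets, and 3 of the 5 genes, against 20.7% of all genes. The groups did not overlap for 5 of 5 genes, where 53.2% of all genes did not. Of the 5, 2 were higher and 3 lower in Blnc1 cells, against 28.3% and 24.9% of all genes. The median log2 fold change of the 5 genes was -0.12, beside 0.0073 for all genes, and the median size of the difference without its sign was 0.23 beside 0.11.

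**Figure D1:**
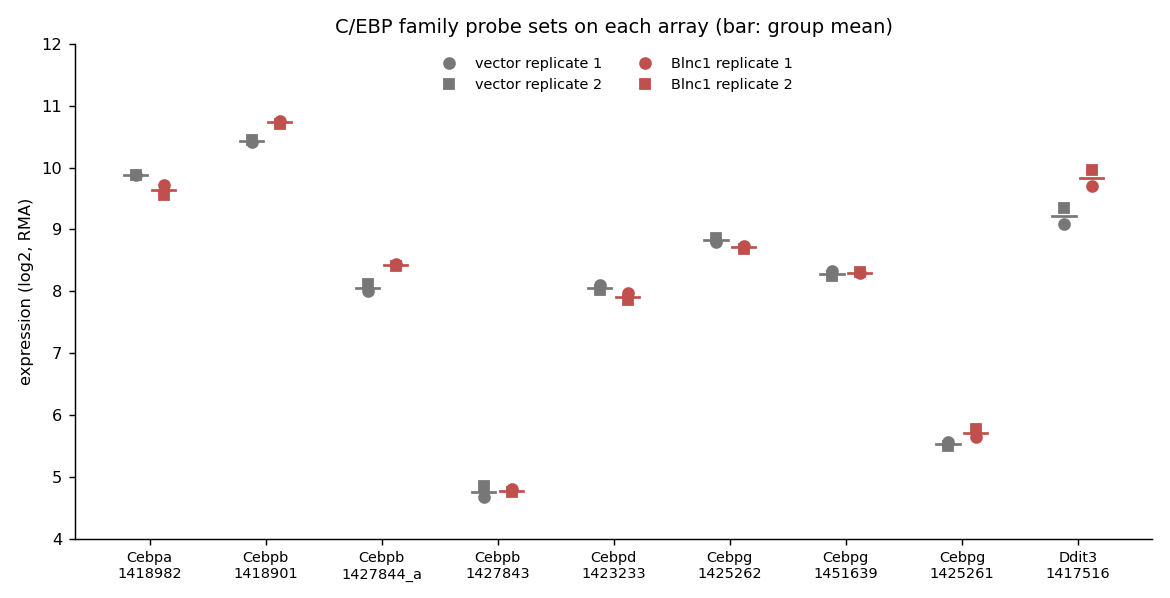
Expression (log2) of the 9 C/EBP family probe sets on each of the 4 arrays, with vector in grey, Blnc1 in red, circles for replicate 1, squares for replicate 2 and bars for group means. Both red points of Ddit3 (9.71 and 9.95) lie above both grey points (9.09 and 9.34), and both red points of Cebpa (9.73 and 9.57) lie below the grey ones.

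Ddit3, the stress-induced member whose pairs do not bind the usual C/EBP site, had the largest difference of the family. Its only probe set, 1417516_PM_at, read 9.09 and 9.34 in vector replicates 1 and 2, and 9.71 and 9.95 in Blnc1 replicates 1 and 2. Both Blnc1 arrays lay above both vector arrays, and the nearest arrays of the 2 groups stood 0.37 apart, more than the 0.25 between replicates in either group. The level was 9.21 ± 0.18 in vector and 9.83 ± 0.18 in Blnc1 cells (SD, n = 2 each), a 1.53-fold difference (log2 fold change 0.62 ± 0.13 SE, 95% interval 0.31 to 0.93, limma adjusted p = 0.0880). It ranked 199 of 23599 probe sets by the size of its rise. When the probe sets of each gene were averaged before the fit, which leaves the Ddit3 values as they are, its SE was 0.12 and its limma adjusted p 0.0420. The variance prior and the adjustment then ran over 10926 genes in place of 23599 probe sets. The share of all genes called in that fit was not counted. It also passed with a variance prior that follows the level and among probe sets above the median level (limma adjusted p = 0.00162 and 0.0378), settings that called 9.21% and 8.64% of their probe sets.

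Cebpb, the early activator that also serves brown fat genes, read higher in Blnc1 cells on its 2 brighter probe sets. On 1418901_PM_at the vector arrays stood at 10.42 and 10.45 and the Blnc1 arrays at 10.75 and 10.71. The groups did not overlap, and replicates lay at most 0.046 apart, against 0.26 between the nearest arrays of the groups. The log2 fold change was 0.30 ± 0.076 (SE, 95% interval 0.11 to 0.49, limma adjusted p = 0.129), a 1.23-fold difference. The second probe set, 1427844_PM_a_at, read 8.002 and 8.12 in vector and 8.44 and 8.41 in Blnc1 cells, again without overlap. Its log2 fold change was 0.37 ± 0.082 (SE, 95% interval 0.17 to 0.57, limma adjusted p = 0.101), a 1.29-fold difference. The third, 1427843_PM_at, was dim: it read 4.67 and 4.85 in vector and 4.80 and 4.75 in Blnc1 cells, below the array medians of 5.98 to 6.04. Its groups overlapped, with a log2 fold change of 0.013 ± 0.091 (SE) whose sign turned after median centring. The brightest probe set passed with the variance prior that follows the level and among probe sets above the median level (limma adjusted p = 0.00133 and 0.0433).

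Cebpa, which keeps the adipocyte programme going in mature cells, read lower in Blnc1 cells. Its single probe set, 1418982_PM_at, stood at 9.88 on both vector arrays and at 9.73 and 9.57 on the Blnc1 arrays. The vector arrays were nearly equal, while the Blnc1 arrays differed by 0.16, as much as the 0.15 that separated the nearest arrays of the groups. The log2 fold change was -0.23 ± 0.088 (SE, 95% interval -0.45 to -0.019, limma adjusted p = 0.231), a level 1.18-fold lower in Blnc1 cells. Without Blnc1 replicate 2 the log2 fold change was -0.15, and without Blnc1 replicate 1 it was -0.31. It passed only with the variance prior that follows the level, of the settings tried (limma adjusted p = 0.0298).

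Cebpd, the other early activator, read 8.10 and 8.02 in vector and 7.97 and 7.85 in Blnc1 cells (1423233_PM_at). The Blnc1 arrays were the lower ones, but the nearest arrays of the groups were only 0.051 apart, less than the replicates within either group. The log2 fold change was -0.15 ± 0.085 (SE, 95% interval -0.36 to 0.060, limma adjusted p = 0.410). Cebpd and Cebpb, which are induced together early in differentiation, thus stood on opposite sides of 0 on their brightest probe sets.

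Cebpg, the short member that pairs with other bZIP proteins, gave no common direction over its 3 probe sets. The brightest, 1425262_PM_at, read 8.80 and 8.86 in vector and 8.74 and 8.68 in Blnc1 cells. Its log2 fold change was -0.12 ± 0.078 (SE, 95% interval -0.31 to 0.072, limma adjusted p = 0.472). The next, 1451639_PM_at, read 8.32 and 8.25 in vector and 8.30 and 8.31 in Blnc1 cells, with overlapping groups and a log2 fold change of 0.018 ± 0.078 (SE), whose sign turned after repeated quantile normalization. The dimmest, 1425261_PM_at, read 5.56 and 5.49 in vector and 5.64 and 5.77 in Blnc1 cells, with a log2 fold change at 0.18 ± 0.087 (SE, limma adjusted p = 0.342). The mean of the 3 probe sets had a log2 fold change of 0.026 ± 0.072 (SE).

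**Figure D2:**
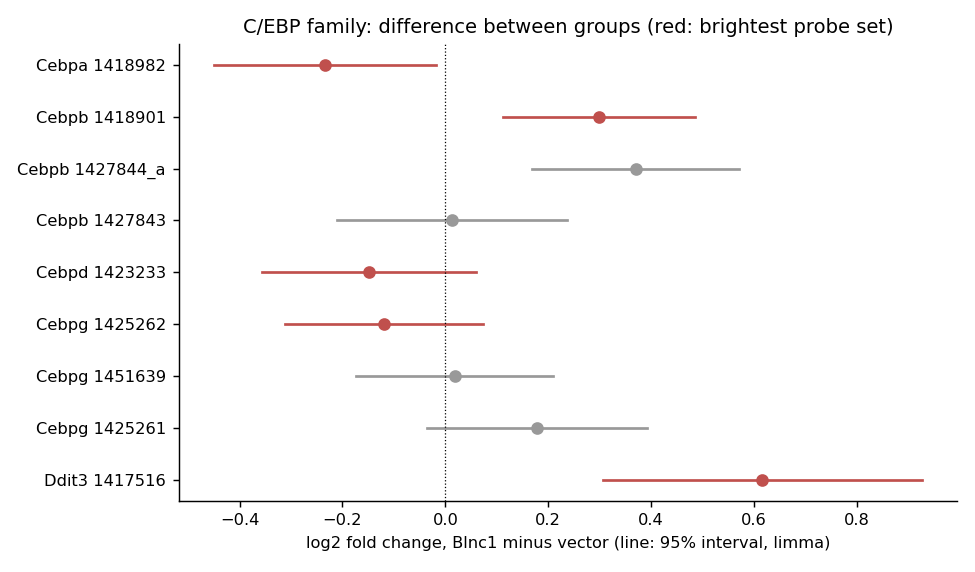
Log2 fold change (Blnc1 minus vector) of each of the 9 probe sets, with 95% intervals from limma, the brightest probe set of each gene in red and the others in grey. The unadjusted intervals of Ddit3 (0.31 to 0.93), of the 2 brighter Cebpb probe sets (0.11 to 0.49 and 0.17 to 0.57) and of Cebpa (-0.45 to -0.019) leave out 0, and those of Cebpd and Cebpg span it.

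Since family members act as pairs, the change of one relative to another was read within each array on the brightest probe sets. Only the shift between groups can be interpreted, because the offset between 2 probe sets also depends on the probes. Each shift is the difference of 2 log2 fold changes given above and is not a separate result. The array values add only how far replicates spread. Cebpa minus Cebpb was -0.54 and -0.57 in vector and -1.03 and -1.14 in Blnc1 cells, a shift of -0.53 against a distance of 0.11 or less between replicates. Cebpb minus Cebpg was 1.62 and 1.59 in vector and 2.02 and 2.03 in Blnc1 cells, a shift of 0.42 with replicate SDs of 0.019 and 0.0077. This shift rests on the Cebpg probe set with a log2 fold change of -0.12. With the others, at 0.018 and 0.18, it would be smaller. Cebpb minus Cebpd shifted by 0.45, from 2.32 and 2.43 to 2.79 and 2.85. Within these 3 differences the groups did not overlap.

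Relative to Ddit3 the other 4 members all shifted down, as they must, since its log2 fold change was the highest of the family. Cebpa minus Ddit3 was 0.79 and 0.54 in vector and 0.019 and -0.39 in Blnc1 cells, a shift of -0.85. That is the largest of the 10 pairs because it sets the lowest log2 fold change against the highest. Cebpb minus Ddit3 shifted by -0.32, from 1.33 and 1.11 to 1.05 and 0.75, with the nearest arrays of the groups 0.059 apart. Cebpa against Cebpd shifted by -0.086 and Cebpd against Cebpg by -0.029. These differences are given as values and were not tested.

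**Figure D3:**
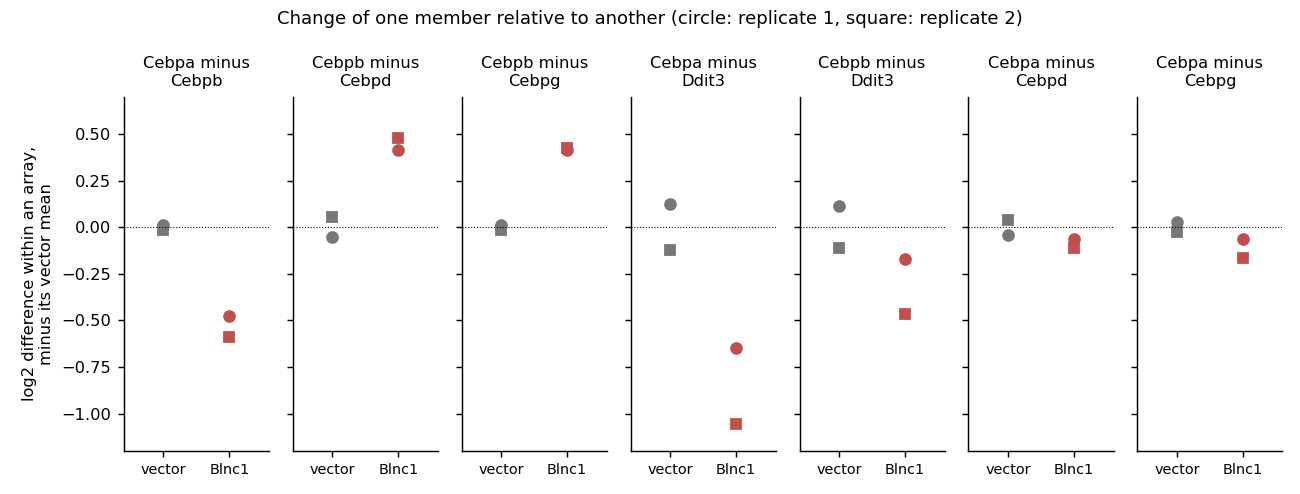
Log2 difference between 2 family members on the same array, minus its vector mean, for 7 of the 10 pairs, with vector in grey and Blnc1 in red. On the brightest probe sets Cebpa relative to Cebpb shifted by -0.53 and Cebpb relative to Cebpg by 0.42, while Cebpa relative to Cebpd shifted by -0.086.

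The labels and the cells were checked beside these values. The brighter probe set of C730029A08Rik, which the reference table links to Blnc1 by synonym, was 24.8-fold higher in Blnc1 arrays (limma adjusted p = 3.73e-05). Its dimmer probe set read lower there without overlap, at 6.82 and 6.40 in vector and 6.35 and 6.24 in Blnc1 arrays (limma adjusted p = 0.315). Of 8 brown adipocyte markers 5 rose and none fell, where 1.23% of all genes passed in either direction. The linear summed levels of the 8 markers were 2679 and 2663 in vector and 5819.7 and 6115 in Blnc1 arrays. None of the 6 measured general adipocyte markers passed (unadjusted p under 0.05 for 0 of them, against 20.7% of all genes). The 3 measured preadipocyte markers were dim and did not pass (2 at an unadjusted p under 0.05, against 20.7% of all genes). Their summed levels were 118 and 119.9 in vector and 92.8 and 95.6 in Blnc1 arrays. The measured macrophage (3), endothelial (1) and skeletal muscle (3) markers all lay below the array medians. None of these passed (unadjusted p under 0.05 for 0 of them, against 20.7% of all genes). For the Gapdh control, read as a sign of RNA quality, the 3' probe set exceeded the 5' probe set by 0.38 and 0.45 in vector and 0.29 and 0.27 in Blnc1 arrays. For the Actb control the gap was larger, at 1.47 and 1.56 in vector and 1.29 and 1.40 in Blnc1 arrays. All 18 hybridization controls were lower in Blnc1 arrays (median -0.27). The part of these shifts in the C/EBP values was not tested, and in such bulk samples fewer cells of a type and less RNA per cell cannot be told apart.

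Upstream of the family, 0 of 13 measured inducers and modifying kinases passed (limma, 2 at an unadjusted p under 0.05, where all genes gave 1.23% and 20.7%), with a median log2 fold change of 0.0029. The 2 were Egr2 and Klf4, zinc finger factors known to switch on Cebpb early in adipogenesis, and both read lower in Blnc1 cells while Cebpb read higher. Egr2 read 4.53 and 4.69 in vector and 4.12 and 3.98 in Blnc1 cells (log2 fold change -0.56 ± 0.097 SE, limma adjusted p = 0.0667). Klf4 read 5.89 and 5.81 against 5.16 and 5.47 (-0.53 ± 0.12 SE, limma adjusted p = 0.102). A second, dimmer Klf4 probe set fell (-0.70, limma adjusted p = 0.0479). In the fit on the mean of each gene's probe sets, adjusted over 10926 genes, both genes passed (limma adjusted p = 0.0288 for Egr2 and 0.0223 for Klf4). All of these probe sets lay below the array medians. Stat5b, a mediator of growth hormone and prolactin signals, stood at 0.21 ± 0.093 (SE) and at -0.092 on its other probe set. Of 2 genes named after their values were seen, Stat5a stood at -0.17 ± 0.081 (SE), and Creb1, the cAMP-activated factor that binds the elements whose core is marked above, overlapped between groups (0.072 ± 0.095 SE).

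Among 11 measured bZIP genes that can pair with or compete with C/EBPs, 0 passed (limma, 4 at an unadjusted p under 0.05, against 20.7% of all genes) and the median was -0.023. Nfil3, a repressor of the same protein class, read 7.49 and 7.57 in vector and 7.87 and 7.96 in Blnc1 cells (log2 fold change 0.39 ± 0.082 SE, limma adjusted p = 0.0939). Fos, an AP-1 subunit, was dim and lower in both Blnc1 arrays (-0.55 ± 0.13 SE, limma adjusted p = 0.115), and its partner Jun stood at 0.24 ± 0.075 (SE, limma adjusted p = 0.177). Atf4, named after its values were seen, is the partner of both Ddit3 and Cebpg and switches on Ddit3 under stress. Its RNA overlapped between groups, at 10.32 and 10.34 in vector and 10.34 and 10.28 in Blnc1 cells. The array does not read the ATF4 protein or its activity.

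Of 9 measured genes listed as brakes, 0 passed and 2 had an unadjusted p under 0.05 (limma, against 1.23% and 20.7% of all genes). The list is a grouping and does not show that each gene acts on C/EBP activity. The median of the 9 was -0.031. Trib3, a pseudokinase and a target of Ddit3, had the smallest p, at 8.81 and 9.28 in vector and 9.44 and 9.84 in Blnc1 cells (log2 fold change 0.60 ± 0.19 SE, limma adjusted p = 0.183). Id2, an inhibitor of helix-loop-helix factors, stood at 0.28 ± 0.093 (SE) and Runx1t1, a corepressor that holds back Cebpa induction, at -0.25 ± 0.12 (SE). Of 8 measured coactivators and chromatin partners 0 passed and 1 had an unadjusted p under 0.05 (limma, against 1.23% and 20.7% of all genes). Of the 8, 7 were positive and the median was 0.085. The groups did not overlap for 4 of them (50%, against 53.2% of all genes). Prdm16, the brown fat partner of Cebpb, stood at 0.22 ± 0.081 (SE, limma adjusted p = 0.220) on its brightest probe set and at -0.0058 and -0.038 on dimmer ones. Rb1 stood at 0.19 ± 0.089 and Crebbp, an acetyltransferase, at -0.16 ± 0.080 (SE).

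Downstream, fat genes with known C/EBP sites did not shift together. Of 12 measured, 1 rose, 1 fell and 10 did not pass, where 1.23% of all genes passed in either direction. The median log2 fold change of the 12 was 0.018, beside 0.0073 for all genes. Ucp1, the uncoupling protein, rose from 5.01 on both vector arrays to 7.97 and 8.05 (log2 fold change 2.997 ± 0.078 SE, limma adjusted p = 2.70e-04). Retn, the adipokine resistin and a target of Cebpa, fell from 11.75 and 11.74 to 11.13 and 11.02 (-0.67 ± 0.081 SE, limma adjusted p = 0.0380). Without 1 array, where the lone array of a group is assumed to vary like the other group, its log2 fold change lay between -0.73 and -0.62 and did not pass (limma adjusted p 0.108 to 0.159). Klf15, a factor induced by Cebpb and Cebpd, stood at -0.29 ± 0.088 (SE, limma adjusted p = 0.168). Of the others, named after their values were seen, Adipoq stood at -0.12 ± 0.077, Pparg at 0.10 ± 0.075, and the glucose transporter Slc2a4, another Cebpa target, at 0.11 ± 0.083 (SE).

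Acute phase and inflammatory genes, the classical Cebpb and Cebpd targets outside fat, were mostly dim, with 3 of 11 above the array median. Of the 11, 0 passed and 2 had an unadjusted p under 0.05 (limma, against 1.23% and 20.7% of all genes). In this list 7 were negative and the median was -0.11. The groups did not overlap for 4 of them (36.4%, against 53.2% of all genes). Ptx3, a secreted pentraxin, read 8.21 and 8.12 in vector and 7.84 and 7.75 in Blnc1 cells (log2 fold change -0.37 ± 0.083 SE, limma adjusted p = 0.101). Serpina3n, a protease inhibitor, stood at -0.38 ± 0.12 and Lcn2, lipocalin 2, at -0.21 ± 0.13 (SE).

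**Figure D4:**
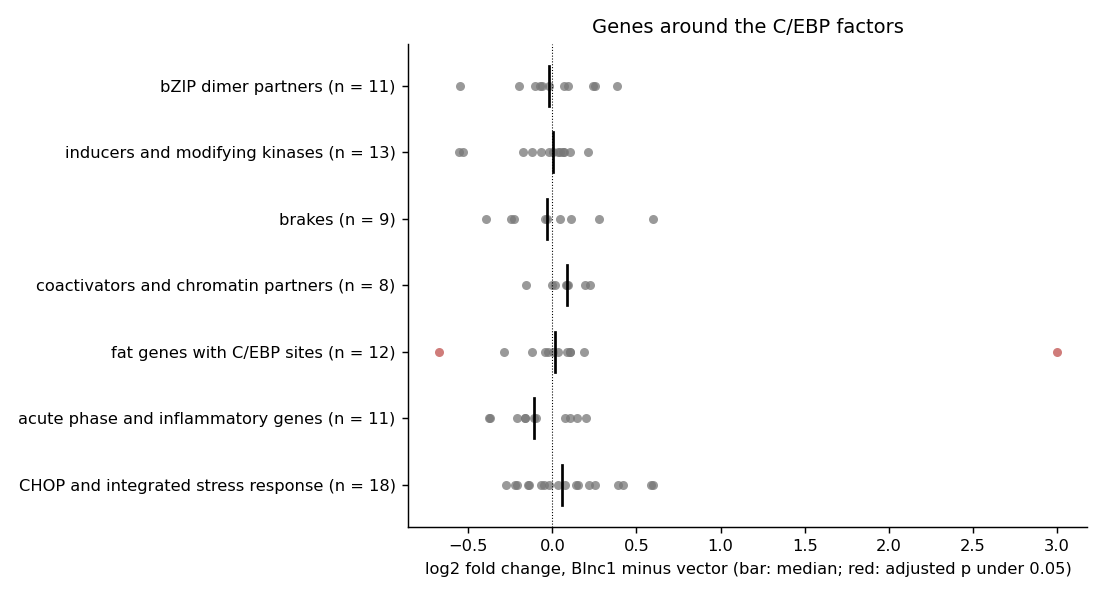
Log2 fold change (Blnc1 minus vector) of each measured gene in the 7 lists of genes around the C/EBP factors, with the median of each list as a bar and genes with a limma adjusted p under 0.05 in red. Only Ucp1 at 2.997 and Retn at -0.67 are red, and the list medians lie between -0.11 and 0.085.

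The genes of the integrated stress response, to which Ddit3 belongs, stood on both sides of 0. Of 18 measured besides Ddit3, 0 passed (limma, against 1.23% of all genes), 7 had an unadjusted p under 0.05 (against 20.7%), 10 were positive, and the median was 0.055. The groups did not overlap for 14 of them (77.8%, against 53.2% of all genes), 8 higher and 6 lower. The 3 with the smallest p were Trib3, the asparagine synthetase gene Asns and Ddit4, a stress-induced inhibitor of mTOR. Asns, a classical Atf4 target, read 10.43 and 10.44 in vector and 10.22 and 10.20 in Blnc1 cells (log2 fold change -0.22 ± 0.075 SE, limma adjusted p = 0.199), opposite to Ddit3. Ddit4 read 9.16 and 9.43 in vector and 9.53 and 9.84 in Blnc1 cells (0.39 ± 0.14 SE, limma adjusted p = 0.214).

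Other known targets of Ddit3, named after their values were seen, lay in both directions. Ppp1r15a, the phosphatase subunit that ends the block on translation, read 6.26 and 6.72 in vector and 6.82 and 7.35 in Blnc1 cells (0.59 ± 0.22 SE, limma adjusted p = 0.225). Ero1a, an oxidase of the endoplasmic reticulum, read 11.36 and 11.70 against 11.80 and 12.10 (0.42 ± 0.15 SE, limma adjusted p = 0.219). The further Ero1a probe sets stood at 0.66 and 0.67. Bcl2l11, which encodes the death promoter Bim, was lower in both Blnc1 arrays on its brightest probe set, at 7.60 and 7.67 in vector and 7.45 and 7.55 in Blnc1 cells (-0.14 ± 0.082 SE, limma adjusted p = 0.424). Its dimmer probe sets had no common direction, at -0.090, 0.25 and -0.23. Bbc3, another gene of that class, overlapped between groups (0.14 ± 0.16 SE). The chaperone gene Hspa5, also named after its values were seen, overlapped too, at -0.052 ± 0.078 (SE). Like Ddit3, the genes Trib3, Ppp1r15a, Ero1a and Ddit4 also differed between replicates, replicate 2 being the higher array in both groups. This held for 8 of the 18 genes, against 21.6% of all genes. The rest of the 8 had negative log2 fold changes: Bcl2l11 and Hspa5, and Sesn2 (-0.21) and Xbp1 (-0.14), named after their values were seen. For Ddit3 the shift from vector to Blnc1 was 0.62 between the arrays numbered 1 and 0.62 between those numbered 2.

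**Figure D5:**
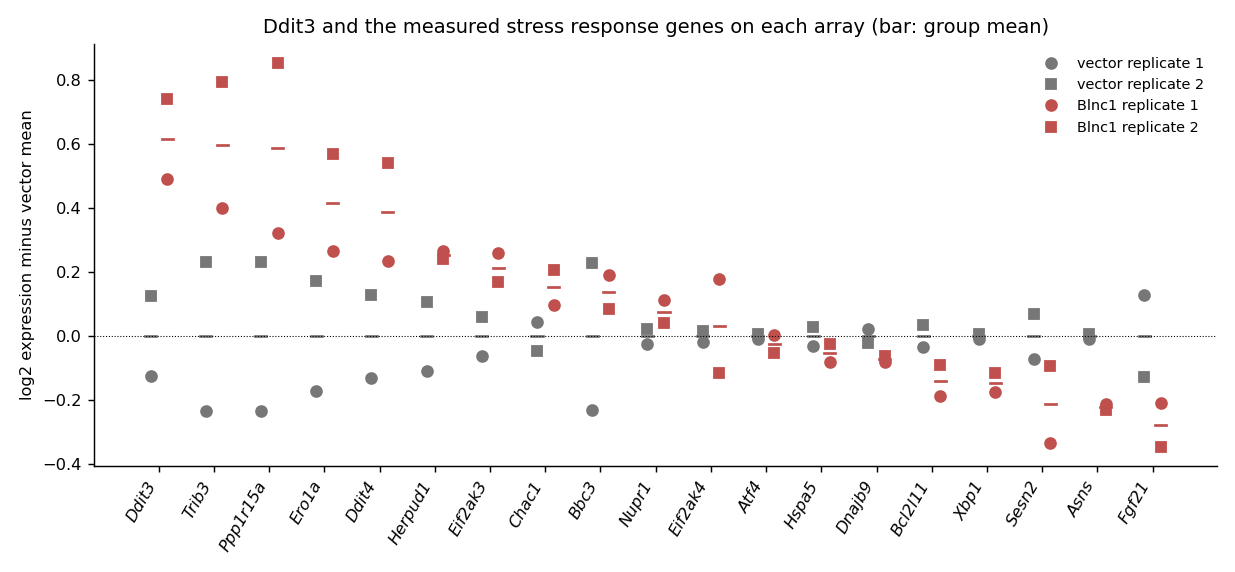
Log2 expression of Ddit3 and the 18 measured stress response genes on each array, minus the vector mean of the gene, with vector in grey, Blnc1 in red, circles for replicate 1, squares for replicate 2 and bars for group means. Ddit3, Trib3 and Ppp1r15a have the largest means on the Blnc1 arrays (0.62, 0.60 and 0.59) and Fgf21 the lowest (-0.28), with Atf4 at -0.023.

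The genes whose profile over the 4 arrays came nearest to each member were found by the root mean square distance of log2 values centred per probe set. For Ddit3 they were Selenbp2, the AP-1 subunit gene Fosl2 and the lysyl hydroxylase gene Plod1, at distances of 0.0203, 0.0242 and 0.0319, where the profile of Ddit3 itself spread by 0.332. Fosl2 read 6.91 and 7.17 in vector and 7.58 and 7.76 in Blnc1 cells. For Cebpb the nearest were Fut8, 4930543N07Rik and Bicra (0.00404 to 0.00752), and for Cebpa the insulator protein gene Ctcf, Arhgap11a and Resf1 (0.00339 to 0.00808). Those of Cebpd were Uso1, Ggact and Exosc2, and those of Cebpg were Pikfyve, the hypoxia factor gene Epas1 and Lemd3. These distances describe 4 arrays, and nothing on shared function is read from them.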

How the data were processed

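The deposited table holds 1 log2 value per probe set and array. The submitters' processing notes name RMA, affy and limma, without versions, settings or order. The log2 scale was read from the range of the values (2.70 to 13.3). RMA compresses differences of dim probe sets. All 4 value columns were used, and 35 control probe sets were left out of the test.

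Probe sets were named by GEO's platform annotation (16692 with 1 symbol, 372 with several, 6535 with none). Blnc1 and vector arrays were compared by two-sided tests from lmFit and eBayes (limma 3.58.1, R 4.3.3) without covariates or filters. P-values were adjusted by Benjamini-Hochberg over 23599 probe sets, at a threshold of 0.05. Pathway genes were read on the probe set with the highest mean. The code was tested on simulated data. Alternatives covered the variance prior, scaling, filters, probe sets, the threshold, a replicate block and fits on 3 arrays. Precision is limited by the small number of arrays.

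The members, lists and tests were chosen with earlier results of these data known. Besides all member probe sets, the 3 genes with the smallest p in each list and the 3 nearest genes of each member were named. Others are marked as named after their values were seen.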

Additional observations from a re-analysis of the deposited data

How the results depend on the processing

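Over the 11 alternatives that refitted single probe sets, the brightest probe sets of the 5 members kept their direction. Most of these could not turn it. The priors, the filters and the replicate block leave the log2 fold change as it is. Where the groups do not overlap, a fit without 1 array cannot turn it either. Only repeated quantile normalization and median centring could have done so. Leaving out 1 array gave log2 fold changes of -0.31 to -0.15 for Cebpa, 0.28 to 0.32 for Cebpb and 0.49 to 0.74 for Ddit3, none past the threshold. With the variance prior that follows the level, Cebpa (-0.23), Cebpb (0.30) and Ddit3 (0.62) passed, and the last 2 also did among probe sets above the median level. Of the 9 C/EBP probe sets, 4 were called with that prior, 3 above the median level and 1 at an adjusted p under 0.10. That prior called 9.21% of all probe sets, and 8.64% of those above the median level were called. At 0.10 it was 958 of 23599. For C/EBP genes the member counts in these settings were 3, 2 and 1, and the shares of all genes were not counted. Averaging the probe sets per gene also called 1, with the adjustment over 10926 genes. The share of all genes called there was not counted. The dim Cebpb probe set turned to -0.0031 after median centring, and to -0.014 and -0.074 without Blnc1 replicate 1 and without vector replicate 1 (up to 0.099 without vector replicate 2). The Cebpg probe set 1451639_PM_at turned to -0.00067 after repeated quantile normalization and to -0.020 without vector replicate 2 (-0.020 to 0.056 without 1 array).

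All probe sets called numbered 219 in the fit reported, 958 at an adjusted p under 0.10, 1020 of those above the median level, 2174 with the prior that follows the level, and 3 to 38 without 1 array. The prior that follows the level called 9.21% of all probe sets. In the lists it called 2 of 11 dimer partners, 2 of 13 inducers, 2 of 9 brakes and 0 of 8 coactivators. It also called 1 of 11 acute phase genes, 4 of 18 stress response genes and 3 of 12 fat genes. The fat gene added was Adipoq (-0.12, limma adjusted p = 0.0172). Dimer partners had 1 call at 0.10, above the median level and on gene means. Inducers had 1 at 0.10 and after median centring, and 2 on gene means. Acute phase genes had 1 above the median level. Of all probe sets above the median level 8.64% were called, and median centring called 311 probe sets. The share of all genes called on gene means was not counted. The fat genes had 1 call without any 1 array. The cause of these shifts was not tested.

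The labels give both groups replicate numbers 1 and 2 without saying what they share, so the numbers were not taken as a pairing. The deviations of same-numbered arrays correlated at 0.089 over all probe sets. That value covers all probe sets together and cannot show whether some genes share a replicate effect. For Ddit3 replicate 2 read 0.25 above replicate 1 in both groups, and its SE was 0.13 without and 0.072 with the replicate block. With the replicate block 30 probe sets and 1 fat gene were called, no member passed, and Ddit3 had a limma adjusted p of 0.0819.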
